A study of Homo sapiens with 10 samples.

Results

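Long H3K27ac clusters are chains of acetylated chromatin regions that lie close together along a chromosome. They were built from the H3K27ac peak list of RPMI-8402 cells by joining regions on chromosomes 1 to 22 and X whose gap was 12.5 kb or less, and clusters of 20 kb or longer were kept. This gave 1404 long clusters of 25742 clusters in all, and 3323 clusters of 2 to 10 kb served for comparison. The positions and the spacing of the H3K27ac regions chose the members, so cluster length, the number of regions and the acetylated share are descriptions and carry no test.

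RPMI-8402 is an established human cell line from T-cell acute lymphoblastic leukaemia (T-ALL). The cells were grown in RPMI medium with serum, and the labels name no drug, gene change or second condition, so every library comes from this 1 line in 1 state. Targets were mapped by CUT&RUN, in which an antibody directs a nuclease to its target in permeabilised cells and the DNA that is cut free is sequenced. Of the 10 libraries in 4 sets, 4 were control IgG libraries, not analysed here, and 6 gave the lists used. Set C supplied H3K27ac, H3K4me1 and a MYC list, set D another MYC list, set A the MYCN list and set B the H3K4me3 list. Every target other than MYC had 1 library, and both MYC lists name 1 signal track in their headers, so they may not be independent. The labels also give the set D MYC library as its own control, so what its peaks were called against is not settled. The lists give positions on hg19 with no score or read count, depth is therefore unknown, and the tests below describe spread among clusters or regions within these lists and not among cultures.

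Acetylation of lysine 27 on histone H3 marks active enhancers and promoters, and H3K4me1 marks enhancers and the flanks of promoters, while H3K4me3 marks active promoters. Stretches of the genome where active enhancers crowd together are known as super-enhancers, and in T-ALL such stretches are known near oncogenes and T-cell identity genes. They are usually chosen by the summed H3K27ac signal of joined regions. MYC and its relative MYCN are transcription factors that pair with MAX, bind promoters above all, and at high levels also enter enhancers.

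The long clusters had between 3 and 23 H3K27ac regions each, with a median of 4. Their median length was 27416 bp (quartiles 23032 and 34897 bp) and the longest ran to 152130 bp. Together they spanned 44.5 Mb, of which 5.01 Mb (11.3%) lay under H3K27ac regions. In clusters of 2 to 10 kb the acetylated share was 21.1% of 21.0 Mb, with a median of 2 regions per cluster. The long clusters were 5.45% of all clusters and held 17.9% of all H3K27ac regions and 19.4% of the acetylated bases. Regions in them averaged 710 bp, against 657 bp in clusters of 2 to 10 kb.

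The term super-enhancer needs more than these lists give. No signal was available to rank the clusters, and none of the 1404 was acetylated over more than 29.2% of its length. Of the 5657 gaps inside the long clusters, 28.1% were 5 kb or shorter and the median gap was 7.26 kb. Joining across gaps of 5 kb or less left 5 clusters of 20 kb or longer, and joining across 20 kb gave 3321. They are therefore called long H3K27ac clusters here, a name that follows the rule.

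**Figure D1:**
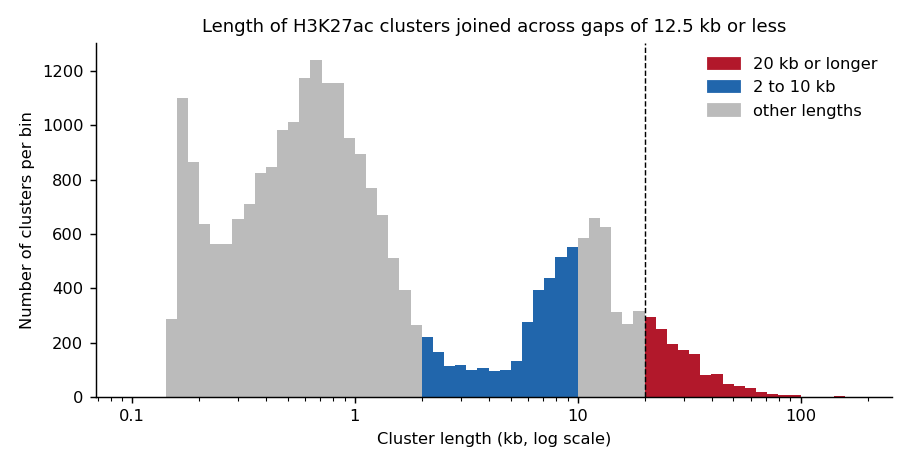
Number of H3K27ac clusters (vertical axis, per bin) by cluster length (horizontal axis, kb, log scale), with the 1404 clusters of 20 kb or longer in red, the 3323 of 2 to 10 kb in blue and all others in grey. The dashed line marks 20 kb, which falls on the falling side of the distribution and not in a gap between groups.

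Clusters on either side of the length minimum had peak counts in the same range. The 3 just inside it lay at chr11:61582791-61602796, chr19:2151825-2171836 and chr12:68985425-69005441, with 3, 3 and 3 MYC set D peaks and 3, 2 and 1 H3K4me3 regions. The 3 just outside it lay at chr17:45898962-45918960, chr14:92568891-92588876 and chr7:100033874-100053843, with 3, 2 and 2 MYC set D peaks and 3, 3 and 2 H3K4me3 regions.

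Nearly every long cluster carried the enhancer mark. H3K4me1 overlapped 95.3% of them (1338 of 1404, exact 95% interval 94.1 to 96.3%) and 71.3% of clusters of 2 to 10 kb, with a background of 52.2% over clusters of any length. The median long cluster held 4 H3K4me1 regions, and 527 held 5 or more. The promoter mark H3K4me3 overlapped 56.5% of long clusters (53.8 to 59.1%) and 35.3% of clusters of 2 to 10 kb, where the background was 30.5%. Thus 611 long clusters had no H3K4me3, 370 had 1 region of it, 221 had 2 and 202 had 3 or more, up to 14 in 1 cluster. A longer cluster overlaps a peak more easily, so these shares are not compared by a test.

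MYC reached most long clusters. The MYC list of set D overlapped 83.5% (1172 of 1404, 81.4 to 85.4%) of long clusters and 54.1% of clusters of 2 to 10 kb, with a background of 41.9%, and the MYC list of set C overlapped 64.3% (61.7 to 66.8%) and 34.2%, with a background of 24.9%. Both lists overlapped 865 long clusters, 307 held MYC of set D only, 38 held MYC of set C only and 194 held neither. With the lists merged, 86.2% of long clusters held MYC in at least 1 set, against a background of 44.1%. Most held few peaks: 447 long clusters had 1 MYC set D peak, 375 had 2, 201 had 3, 87 had 4 and 62 had 5 or more. MYCN was rare, at 101 long clusters (7.19%, 5.90 to 8.67%) and 3.76% of clusters of 2 to 10 kb, with a background of 2.79%.

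The longest clusters show how the marks were laid out. The longest, at chr21:43051762-43203891, held 22 H3K27ac and 25 H3K4me1 regions along its whole length, 3 MYC regions of set C, 5 MYC peaks of set D and no MYCN peak. Its only H3K4me3 region lay 136 kb from its start, next to MYC of both sets. The next, at chr12:125053645-125205611, is also the longest without H3K4me3 and held 8 MYC peaks in each list, none of them between 41.2 and 114 kb from its start. Next in length were chr2:43333062-43466168, with 9 MYC set D peaks and 2 H3K4me3 regions, and chr4:87845636-87967210, with 5 and 3. After them came chr7:142131297-142231843, chr4:109222869-109320505, chr21:43448877-43546379, chr1:229112613-229206999, chr10:126299989-126394101 and chr9:139423766-139516276. Of these last 6, the clusters on chromosomes 7, 4, 1 and 10 had no H3K4me3 region, while each of the 6 had between 10 and 23 H3K4me1 regions.

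**Figure D2:**
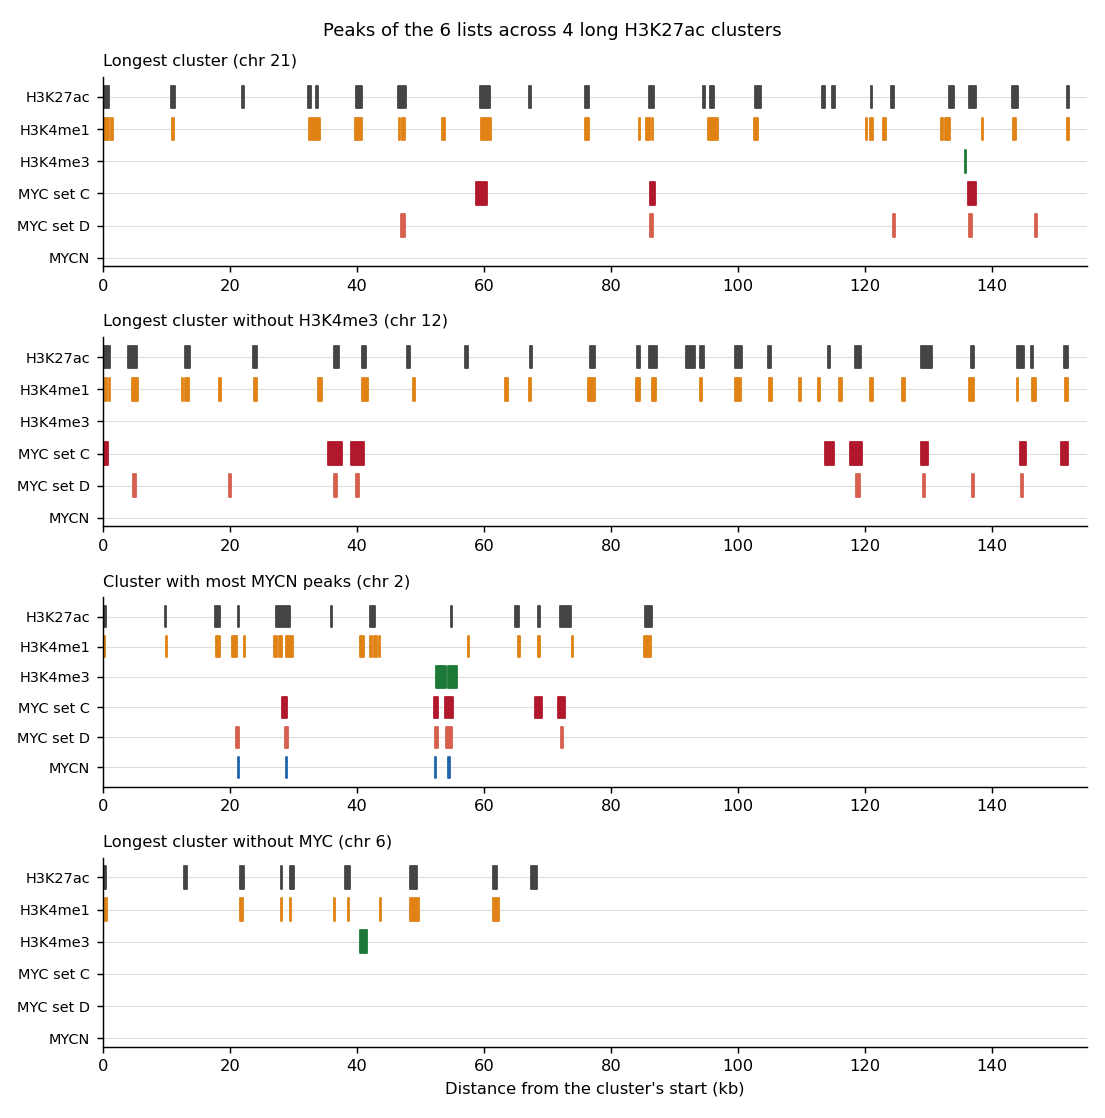
Peaks of the 6 lists (rows) along 4 long clusters, drawn to 1 scale as distance from the cluster's start in kb; a peak narrower than 0.15 kb is drawn at that width. H3K4me1 overlaps 15 of 22, 16 of 23, 8 of 12 and 7 of 9 H3K27ac regions from the top cluster down, MYC is found at a few of the acetylated regions, the second cluster from the top has no H3K4me3 and the lowest has no MYC or MYCN.

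The first comparison asked whether the factors and marks were denser in long clusters. Per 100 kb of cluster span every list was sparser in them. MYC of set D had 5.57 peaks per 100 kb in long clusters and 9.85 in clusters of 2 to 10 kb, a rate ratio of 0.565 (95% interval 0.532 to 0.6004; quasi-Poisson rate model over clusters, two-sided, n = 1404 and 3323 clusters, adjusted p = 3.97e-73 over 6 lists). MYC of set C had 3.72 and 5.72, a ratio of 0.650 (0.598 to 0.706). The ratios were 0.434 for MYCN (0.328 to 0.576), 0.773 for H3K4me1 (0.740 to 0.809) and 0.547 for H3K4me3 (0.4997 to 0.598), all past the threshold. Long clusters consist more of gaps, however, which is a result of the rule, and in these the lists were thin: MYC set D had 1.53 peak centres per 100 kb of gap and 37.3 per 100 kb of acetylated bases in long clusters, against 1.72 and 40.3 in clusters of 2 to 10 kb.

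Counted per 100 kb of acetylated bases the picture differed by mark. H3K4me1 had 116 regions per 100 kb of acetylated bases in long clusters and 80.4 in clusters of 2 to 10 kb, a ratio of 1.45 (1.39 to 1.51; quasi-Poisson rate model, n = 1404 and 3323 clusters, adjusted p = 2.71e-63). In the set C list MYC was also denser, with 33.0 and 27.1 and a ratio of 1.22 (1.13 to 1.31; same model, n = 1404 and 3323 clusters, adjusted p = 8.02e-07). That list comes from the same set as the H3K27ac list that chose the clusters, and what this contributes was not tested. MYC of set D, at 49.4 and 46.7, did not pass (ratio 1.06, 0.998 to 1.12; n = 1404 and 3323 clusters, adjusted p = 0.0902). Neither did MYCN (0.813, 0.624 to 1.06) or H3K4me3 (1.02, 0.937 to 1.12). Peaks centred in gaps enter these counts, and a count of the centres inside H3K27ac regions alone, added after the data were seen, changed most of them. MYC of set C then had 22.8 centres per 100 kb of acetylated bases in long clusters and 22.5 in clusters of 2 to 10 kb, a ratio of 1.01 that did not pass (0.930 to 1.10; n = 1404 and 3323 clusters, adjusted p = 0.770). In the set D list MYC had 37.3 and 40.3 and passed as lower, with a ratio of 0.927 (0.869 to 0.989; n = 1404 and 3323 clusters, adjusted p = 0.0334). MYCN (0.714, 0.537 to 0.949) and H3K4me3 (0.794, 0.721 to 0.875) passed as lower too, and H3K4me1, at 72.4 and 62.1, as higher with a smaller ratio of 1.17 (1.11 to 1.23; n = 1404 and 3323 clusters, adjusted p = 6.84e-09).

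**Figure D3:**
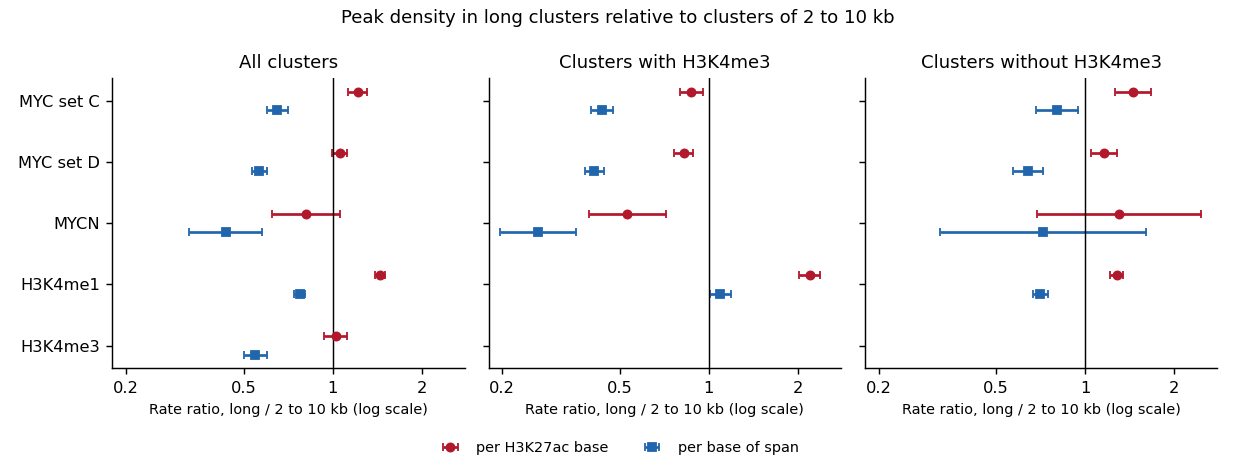
Rate ratio of peak density in long clusters over clusters of 2 to 10 kb (horizontal axis, log scale) for each list, per base of span (blue squares) and per base under H3K27ac (red circles), with 95% intervals of the quasi-Poisson model; the panels show all clusters, those with H3K4me3 and those without. For MYC of set D the span ratio over all clusters was 0.565 and the ratio per acetylated base 1.06.

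The same densities were followed over cluster length, in a series that was not tested. H3K4me1 had 58.7 regions per 100 kb of acetylated bases in clusters under 2 kb, 80.4 from 2 to 10 kb, 94.6 from 10 to 20 kb, 110 from 20 to 30 kb, 120 from 30 to 50 kb, 124 from 50 to 100 kb and 132 in the 5 clusters of 100 kb or longer. Those counts include centres in gaps, while the acetylated share of the span is 97.5% in the shortest class and 11.05% in the longest. Among centres inside H3K27ac regions the H3K4me1 series was much flatter, at 58.2, 62.1, 66.5, 70.8, 73.3, 74.2 and 83.7 in the same order. MYC of set C had 22.9, 27.1, 26.8, 31.6, 31.5, 40.0 and 35.7 with gaps included, but inside H3K27ac regions it showed no order, at 22.4, 22.5, 20.8, 21.8, 21.7, 28.1 and 21.96. For MYC of set D the values lay between 41.2 and 50.7 with gaps included, and inside H3K27ac regions it had 46.0 in the shortest class and 34.8 at 50 to 100 kb. H3K4me3 inside H3K27ac regions had 28.5 in the shortest class, 19.3 at 20 to 30 kb and 11.4 at 50 to 100 kb. Mean region width was 622 bp in the shortest class and 738 bp at 50 to 100 kb, and its part in these series was not tested.

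**Figure D4:**
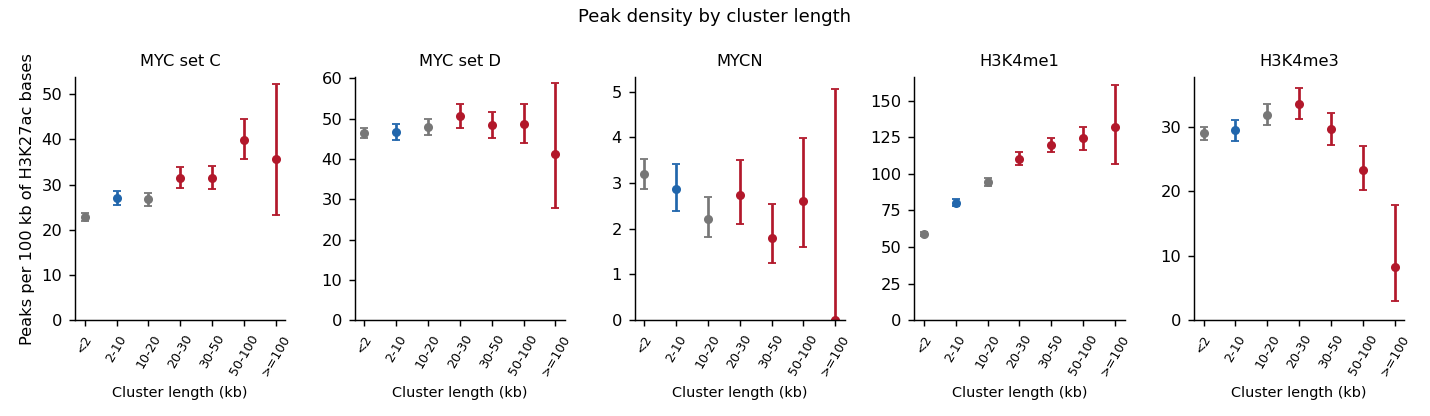
Peaks per 100 kb of acetylated bases (vertical axis, starting at 0) by cluster length class (kb) for each list, long clusters in red, 2 to 10 kb in blue and other classes in grey, with exact 95% Poisson intervals that cover counting error only. Centres in gaps are included, so H3K4me1 runs from 58.7 in the shortest class to 132 in the longest, which holds 5 clusters and no MYCN peak centre, against 58.2 and 83.7 for centres inside H3K27ac regions.

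The promoter mark divided the long clusters. The 793 with H3K4me3 had 6.73 MYC set D peaks per 100 kb of span and the 611 without it 3.98, a ratio of 1.69 (1.55 to 1.85; quasi-Poisson rate model, n = 793 and 611 clusters, adjusted p = 9.56e-29). For MYC of set C the densities were 4.84 and 2.17 (ratio 2.23, 1.99 to 2.50) and for MYCN 0.381 and 0.101 (ratio 3.76, 2.18 to 6.48; n = 793 and 611 clusters, adjusted p = 2.08e-06), though with only the wider H3K27ac regions kept the MYCN ratio was 2.68 and no longer passed. H3K4me1 went the other way, at 12.3 and 14.2 (ratio 0.869, 0.823 to 0.918; n = 793 and 611 clusters, adjusted p = 6.79e-07). By number of H3K4me3 regions, MYC of set D overlapped 68.7% of long clusters with none, 92.2% of those with 1, 97.3% with 2 and 97.0% with 3 or more, and MYCN 2.62%, 9.46%, 10.4% and 13.4%. Per 100 kb of span MYC of set C had 2.17, 3.42, 4.76 and 7.28 regions in the same order.

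Long clusters without H3K4me3 often met MYC. MYC of set D overlapped 420 of the 611 (68.7%, 64.9 to 72.4%) and 34.7% of clusters of 2 to 10 kb without H3K4me3, and the background over all clusters without H3K4me3 was 21.9%. MYC of set C overlapped 265 (43.4%, 39.4 to 47.4%) and 16.1%, with a background of 8.98%, and MYC of either set 444 (72.7%) and 37.5%, with a background of 23.8%. H3K4me1 overlapped 97.4% and 79.4%, with a background of 58.9%. MYCN overlapped 16 long clusters (2.62%, 1.50 to 4.22%) and 0.744% of the shorter ones, with a background of 0.52%.

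Per length the difference again depended on the bases counted. Without H3K4me3, long clusters had 3.98 MYC set D peaks per 100 kb of span and clusters of 2 to 10 kb 6.21 (ratio 0.640, 0.571 to 0.718; quasi-Poisson rate model, n = 611 and 2150 clusters, adjusted p = 7.87e-14). Per 100 kb of acetylated bases they had 35.7 and 30.8 (ratio 1.16; n = 611 and 2150 clusters, adjusted p = 0.00437). For the set C list the densities on that scale were 19.5 and 13.4 (ratio 1.45, 1.26 to 1.67; n = 611 and 2150 clusters, adjusted p = 6.33e-07), and for H3K4me1 127 and 99.8 (ratio 1.28, 1.21 to 1.35), which also passed. MYCN, with 19 peaks in each class, gave no call (ratio 0.720 per span, 0.323 to 1.60; n = 611 and 2150 clusters, adjusted p = 0.421). Restricted to centres inside H3K27ac regions, MYC of set C still passed (ratio 1.33, 1.13 to 1.55; n = 611 and 2150 clusters, adjusted p = 0.00229). Set D did not (ratio 1.049, 0.942 to 1.17; n = 611 and 2150 clusters, adjusted p = 0.475), nor did H3K4me1 (1.07; n = 611 and 2150 clusters, adjusted p = 0.0836).

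In clusters with H3K4me3 the ratios differed from these. MYC of set D had 59.1 peaks per 100 kb of acetylated bases in long clusters and 71.9 in clusters of 2 to 10 kb (ratio 0.822, 0.764 to 0.885; quasi-Poisson rate model, n = 793 and 1173 clusters, adjusted p = 4.33e-07). MYCN had 3.35 and 6.32 (ratio 0.530, 0.392 to 0.715) and H3K4me1 108 and 49.4 (ratio 2.19, 2.02 to 2.37), both past the threshold. A test of the difference itself, chosen after the data were seen, set the ratio in clusters with H3K4me3 over that in clusters without: it was 0.710 for MYC of set D (0.628 to 0.803; n = 793 and 1173 clusters with it and 611 and 2150 without, adjusted p = 7.88e-08). It was 0.6005 for MYC of set C (0.508 to 0.709), 0.407 for MYCN (0.201 to 0.822) and 1.72 for H3K4me1 (1.56 to 1.89), and all of these passed. Among centres inside H3K27ac regions the values were 0.682 for MYC of set D, 0.529 for MYC of set C and 1.69 for H3K4me1, still past the threshold, and 0.513 for MYCN (0.235 to 1.12), which no longer passed. H3K4me3 covered 7.93% of the span of long clusters with it and 23.1% of that of clusters of 2 to 10 kb with it. Each cluster here had to hold at least 1 H3K4me3 region, which by itself makes that mark denser in the shorter clusters. Per 100 kb of acetylated bases it had 28.5 centres in the long clusters and 54.3 in the shorter ones. How far this choice sets the ratios and the test above was not tested, so they are not read as traits of long clusters.

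The named clusters without H3K4me3 varied in their factor content. After those on chromosomes 12, 7, 4, 1 and 10 given above, the next in length were chr16:75076766-75164334, with 5 MYC peaks in each list and 1 MYCN peak, and chr3:127453681-127531622, with 5 MYC set D peaks and 16 H3K4me1 regions. Then came chr7:2103559-2178351, which held 3 MYC set D peaks and none of set C, chr6:22025429-22099658 and chr12:104992059-105064064. Among the 10, MYCN was found only in the cluster on chromosome 16.

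Single H3K27ac regions were then compared, which leaves out the bases of the gaps, with Fisher's exact test (two-sided, p-values adjusted over 11 tests). A peak centred in a gap still counts where its edge touches a region. The test treats regions of the same cluster as independent, so its p-values may be too small. Of the 7061 regions in long clusters, 49.6% met H3K4me1 without H3K4me3, 14.0% H3K4me3 alone, 4.69% both and 31.7% neither. Of the 6734 regions in clusters of 2 to 10 kb, 41.0%, 17.6%, 4.28% and 37.2% did. H3K4me3 overlapped 18.7% of regions in long clusters and 21.9% in the shorter ones (-3.14 points, adjusted p = 1.30e-05, exact test), with a background of 23.2% over all H3K27ac regions.

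Among regions without H3K4me3, the enhancer mark and MYC were both more frequent in long clusters. H3K4me1 overlapped 61.0% of 5738 regions in long clusters and 52.4% of 5261 in clusters of 2 to 10 kb, 8.54 points more (adjusted p = 1.98e-18, exact test), where the background over all H3K27ac regions without H3K4me3 was 53.8%. For MYC of set C the shares were 13.2% and 8.496% (background 7.81%, adjusted p = 8.86e-15, exact test), and for MYC of set D 20.4% and 17.4% (background 17%, adjusted p = 1.60e-04, exact test). MYC of either set, with a background of 19.5%, overlapped 24.96% and 19.8%, or 5.13 points more (adjusted p = 4.75e-10, exact test). MYCN, with a background of 0.375%, overlapped 0.453% and 0.399%, which did not pass (adjusted p = 0.770, exact test). Among regions of H3K4me1 without H3K4me3 the median width was 661 bp in long clusters and 584 bp in the shorter ones. Width makes overlap easier, and with only the wider H3K27ac regions kept the differences were 7.58 points for H3K4me1 and 4.23 for merged MYC, both still past the threshold. Counted by the centre of the region they were 6.35 and 3.34 points, also past the threshold. The regions without H3K4me3 were not matched for that mark elsewhere in their cluster. Of the 5738 and 5261, 3005 and 4386 lay in clusters without H3K4me3, and the others in clusters with it. MYC was denser in long clusters with H3K4me3 than in those without, and the part of this mix in the differences was not tested. Counts by cluster took only clusters without H3K4me3, and they differed. Inside the H3K27ac regions of those clusters, the density of MYC of set C passed (ratio 1.33). MYC of set D and H3K4me1 did not (1.049 and 1.07).

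Among regions with H3K4me3 the MYC lists differed in which test passed. MYC of set D overlapped 72.1% of 1323 regions in long clusters and 77.0% of 1473 in the shorter ones, or -4.88 points (adjusted p = 0.00551, exact test), with a background of 79.8% over all H3K27ac regions with H3K4me3. In the set C list the shares were 60.8% and 59.0% (background 56.5%, adjusted p = 0.408, exact test). Merged MYC overlapped 81.9% and 83.0% (background 84.9%), which did not pass. MYCN overlapped 5.29% and 6.79%, which did not pass (background 6.37%, adjusted p = 0.155, exact test). H3K4me1 overlapped 25.02% and 19.6%, 5.47 points more (background 17.1%, adjusted p = 9.64e-04, exact test). Counted by whether the centre of the region lay in an H3K4me1 region, that difference was 2.26 points and no longer passed (adjusted p = 0.0741, exact test).

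**Figure D5:**
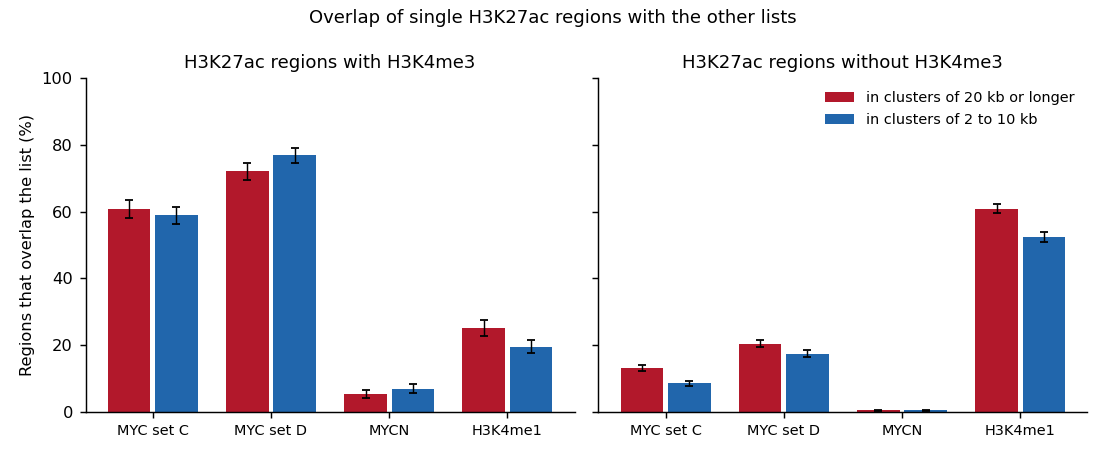
Share of single H3K27ac regions that overlap each list (vertical axis, %), in long clusters (red) and in clusters of 2 to 10 kb (blue), for regions with H3K4me3 (left) and without (right); bars start at 0 and carry exact 95% binomial intervals that cover counting error only. Without H3K4me3, H3K4me1 overlapped 61.0% and 52.4% and MYC of set C 13.2% and 8.496%.

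The place of a region within its long cluster was compared as well, in tests chosen after the data were seen. H3K4me3 overlapped 21.3% of the 2808 regions at the ends of long clusters and 17.1% of the 4253 inner ones (4.19 points more, adjusted p = 5.54e-05 over 5 exact tests). The tests pool regions over clusters, and clusters with more regions give more inner ones. H3K4me3 was sparser in longer clusters, with 19.3 centres per 100 kb of acetylated bases at 20 to 30 kb and 11.4 at 50 to 100 kb. End regions were also wider, with a median of 595.5 bp against 571 bp. The difference is therefore not read as an effect of place. H3K4me1 was found at 53.9% of end and 54.5% of inner regions, MYC of set D at 30.9% and 29.6%, and MYC of set C at 21.5% and 22.6% (exact tests, adjusted p = 0.661, 0.355 and 0.382). MYCN overlapped 1.75% and 1.11% (adjusted p = 0.0678, exact test).

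The marks under single MYC peaks were described as well, with no test. Of the 2476 MYC set D peaks centred in long clusters, 44.8% (42.8 to 46.8%) overlapped H3K4me3, 28.0% (26.3 to 29.8%) H3K4me1 without H3K4me3, 21.8% H3K27ac alone and 5.41% none of the marks. Of the 2066 in clusters of 2 to 10 kb, 54.5% (52.4 to 56.7%), 23.1% (21.3 to 25.02%), 20.4% and 1.89% did. In the set C list H3K4me3 was met by 52.0% of 1652 regions in long clusters and 65.97% of 1199 in the shorter ones, and H3K4me1 without H3K4me3 by 24.0% and 16.4%.

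Nearly all MYCN peaks overlapped MYC, in long clusters and in clusters of 2 to 10 kb alike, and the share over all MYCN peaks is not given. Of the 119 that overlapped a long cluster, 116 (97.5%, 92.8 to 99.5%) met MYC of set D and 84 (70.6%) MYC of set C, and of the 133 in clusters of 2 to 10 kb 130 (97.7%) and 99 (74.4%) did. H3K4me3 was met by 72.3% (63.3 to 80.1%) of them and by 82.7% (75.2 to 88.7%) of those in clusters of 2 to 10 kb, and H3K4me1 by 25.2% (17.7 to 34.0%) and 12.0% (7.04 to 18.8%). In 86 long clusters there was 1 MYCN peak, in 13 there were 2, in 1 there were 3 and in 1 there were 4. The cluster with 4 lay at chr2:28561095-28647458, where 1 MYCN peak overlapped H3K4me3, another ended just before an H3K4me3 region, and the other two lay at acetylated regions with MYC, over 20 kb from that mark. Of the 13 clusters with 2, the 5 longest were chr21:43448877-43546379, chr3:50358648-50410287, chr6:42847135-42898271, chr1:6408449-6454237 and chr1:45265291-45297544. Each of these 5 had between 4 and 7 MYC set D peaks and at least 1 H3K4me3 region. The next 3, chr15:75135759-75165647, chr3:45624671-45653371 and chr17:27037869-27066214, had 2, 2 and 3 MYC set D peaks and 2, 2 and 5 H3K4me3 regions.

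The long clusters densest in MYC of set D lay beside centromeres. Ranked by MYC set D peaks per 100 kb, the first 4 long clusters were chr16:46391375-46413371 with 59.1, chr10:42384468-42409391 with 48.2, chr11:51569978-51591334 with 46.8 and chr2:92269139-92325913 with 37.0, and the next had 21.9. None of the 4 had H3K4me3, and their MYC set D counts of 13, 12, 11 and 21 stood against 0, 4, 1 and 4 for set C. Whether these set D counts reflect MYC binding was not tested. All 4 lie within 1 Mb of a stretch of over 2 Mb without a peak of any list, in which hg19 places the centromere. These clusters also held 6 of the 19 MYCN peaks of long clusters without H3K4me3. This was not particular to long clusters. In clusters of 2 to 10 kb without H3K4me3, 6 of the 19 MYCN peaks also lay within 1 Mb of such a stretch. MYC of set D had 13.4 peaks per 100 kb of span in those near one and 6.21 over that whole class. Among clusters without H3K4me3, 15 long clusters and 59 of 2 to 10 kb lay within 1 Mb of such a stretch. With both left out, the ratio for MYC of set D per acetylated base was 1.12 (1.01 to 1.24, quasi-Poisson rate model, n = 596 and 2091 clusters, adjusted p = 0.0397). That for MYC of set C was 1.46 (1.26 to 1.68). Both ratios include centres in gaps. For centres inside H3K27ac regions, with no cluster left out, the set D ratio was 1.049 and did not pass.

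The other clusters of that ranking all held H3K4me3. They lay at chr17:38252416-38279839, with 6 MYC set D and 2 MYCN peaks, chr11:118972406-118992495, chr6:157723886-157744666, chr7:99678655-99699660, chr19:59048960-59070795 and chr3:51699149-51721575. Each had between 1 and 6 H3K4me3 regions.

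At the other extreme, 194 long clusters held no MYC of either set, and none of them held MYCN. Their median length was 24.5 kb, against 28.2 kb for the 1210 with MYC, and 9.06% of their bases were acetylated, against 11.6%. H3K4me3 was found in 13.9% of those without MYC and 63.3% of those with it, but H3K4me1 in 94.8% and 95.4%. The longest without MYC lay at chr6:158362287-158430645 (68359 bp), with 9 H3K27ac and 9 H3K4me1 regions and 1 H3K4me3 region. Others were chr9:96351215-96396461, with 8 H3K4me1 regions, chr4:185330765-185374983, chr11:121384952-121428597 and chr1:160398665-160441649. Among long clusters 8 (0.570%) had none of the factors, H3K4me3 or H3K4me1. Longer clusters miss a list less easily, and the share over clusters of any length is not given.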

How the data were processed

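CUT&RUN peak lists of 6 libraries of RPMI-8402 were used. The deposited lists give start and end positions and no score; the build (hg19) and the tools MACS2 and SEACR, without versions, are per the submitters' processing notes. The MYCN list is cutruntools output with q below 0.01, SEACR in stringent mode made the set C MYC list, and H3K4me3 and MYC of set D from MACS2, per the file headers; the H3K27ac and H3K4me1 lists have no header. Callers differ, so densities were compared within a list only. Peaks off chromosomes 1 to 22 and X were left out (46 of 39574 for H3K27ac). Overlap means at least 1 bp; densities count peak centres. MYC merged joins both MYC lists where they share a base. Density ratios came from a quasi-Poisson model with log length as offset, adjusted by Benjamini-Hochberg within a comparison at 0.05. The model was run on counts simulated with its own rates and dispersion, which cannot test the choice of bases counted or of clusters by H3K4me3. Cluster and overlap counts were identical to those of bedtools 2.31.1. Named clusters are the 10 longest, the 10 longest without H3K4me3, the 10 with most MYCN, the 10 densest in MYC of set D, the longest without MYC, and 3 on each side of the length minimum. The members and lists were chosen with earlier results of these data known. Genes and sequences at the clusters were not analysed here. Software was matplotlib 3.10.9, scipy 1.17.1 and numpy 2.4.6 under Python 3.11.15.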

Additional observations from a re-analysis of the deposited data

How the results depend on the processing

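Of 163 alternatives over 17 results, 126 kept the direction and the side of the threshold, 27 turned the direction, 7 lost the call and 3 gained it. Depth is unknown, so what it limits cannot be stated. Per kb of H3K27ac bases the ratios of long clusters over clusters of 2 to 10 kb were 1.13 for MYC, 0.813 for MYCN, 1.45 for H3K4me1 and 1.02 for H3K4me3, and without H3K4me3 1.23 for MYC, 1.30 for MYCN and 1.28 for H3K4me1. With clusters beside long peak-free stretches left out as well, they were 1.13, 0.812, 1.44 and 1.02, and 1.18, 1.30 and 1.27. Counting centres inside H3K27ac regions gave 0.966 for MYC, which no longer passed, 1.17 for H3K4me1, and 0.714 for MYCN and 0.794 for H3K4me3, both past the threshold, and without H3K4me3 1.11 for MYC and 1.07 for H3K4me1, neither past it. A gap of 5 kb left 5 long clusters and gave 1.07 for MYC, 3.43 for MYCN, 1.14 for H3K4me1 and 0.261 for H3K4me3, none past the threshold. Without H3K4me3 it left 3 and gave 1.85 for MYC and 11.7 for MYCN. Both turned the direction and passed the threshold, while H3K4me1, at 0.923, did not pass. At that gap long clusters with H3K4me3 over those without gave 0.332 for MYC and 1.18 for H3K4me1, neither past the threshold. For MYCN without H3K4me3, a gap of 20 kb gave 0.338 and wider H3K4me3 regions 0.531; wider H3K27ac regions gave 2.68 for MYCN with over without H3K4me3, no longer past the threshold. For single regions, counting by region centre gave 0.304 points for MYC and 0.396 for MYCN with H3K4me3, -0.0124 for MYCN without it and 2.26 for H3K4me1 with it, which lost its call; wider regions gave -0.0133 for MYCN without it. Leaving out either MYC list gave ratios of 0.565 to 0.650 over all clusters, 0.640 to 0.802 without H3K4me3 and 1.69 to 2.23 with over without it, and differences of 2.98 to 4.73 points for regions without H3K4me3 and -4.88 to 1.85 for those with it. The cause of these changes was not tested, other than that the 5 kb gap leaves few clusters. No paired analysis was possible because the labels carry no replicate numbers and each target other than MYC has 1 library.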

Other observations

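Long clusters were unevenly spread over the chromosomes. They held 31.9% of the H3K27ac bases of chromosome 21 and 30.9% of those of chromosome 17, with 30 and 127 clusters, but 9.81% of those of chromosome 13, with 14. Of the 58 long clusters on chromosome 19, 17.2% had no H3K4me3, and of the 21 on chromosome 18, 66.7%. MYC of set D overlapped between 73.9% of the long clusters of a chromosome, on chromosome 14, and 94.7%, on chromosome 12, and MYC of set C between 28.6%, on chromosome 13, and 84.5%, on chromosome 19. MYCN was found in 8.33% of the 156 long clusters of chromosome 1 and 8.66% of the 127 of chromosome 17, near its 7.19% of all long clusters. It was found in 0 of 31 on chromosome 9 and 0 of 21 on chromosome 18. By an approximate one-sided limit, and not the exact intervals used above, these counts allow shares of up to about 9.68% and 14.3%.

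Long clusters with MYC of both sets, MYCN, H3K4me3 and H3K4me1 numbered 78 (5.56%), with a median length of 28.5 kb. A longer cluster overlaps every list more easily, and the share over clusters of any length is not given, so this count only describes the long clusters. H3K4me1 in the gaps of long clusters had 5.57 centres per 100 kb, against 4.88 in the gaps of clusters of 2 to 10 kb, and H3K4me3 had 1.72 and 2.27, with no test.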
